A study of Mus musculus with 8 samples.

Results

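The spans of 8 cadherin genes, Cdh1, Cdh2, Cdh4, Cdh8, Cdh12, Cdh13, Cdh18 and Cdh23, were followed while a TET enzyme was switched on in mouse embryonic stem cells. The genes were chosen by name, and every CpG call between the first and the last base of a gene in the mouse build GRCm38 was counted as its own. This gave 3590 calls on 1663 reads, or 0.194% of the 1849087 calls of the series, in 8 of the 34561 annotated genes that held a call. The calls came from 8 libraries of APOBEC-coupled epigenetic sequencing, in which 5-hydroxymethylcytosine (5hmC) is protected by a glucose while cytosine and 5-methylcytosine are deaminated. An undeaminated CpG call is read as 5hmC plus background, and it may also include further oxidised forms, formyl- and carboxylcytosine, which the deaminase acts on poorly.

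All 8 libraries were made from one stem cell line in which the 3 endogenous TET enzymes had been knocked out and which carried, on a PiggyBac transposon, a doxycycline-inducible catalytic domain of mouse TET3 linked to an mCherry reporter. All cells grew in medium with 50 µg/ml ascorbate. The control (0 h, libraries A, B and C) received no doxycycline, and the other cells were collected after 6 h (libraries A and B) or 12 h (libraries A, B and C) in 1 µM doxycycline. The catalytic domain is not the whole enzyme, the line is the only one used, and no label tells whether the libraries of a time are separate cultures, so p-values measure the spread between these libraries, which may be technical.

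Cadherins are calcium-dependent adhesion proteins. The classical ones bind their like on the neighbouring cell and hold the actin skeleton through catenins, and a cell's choice of cadherin helps to sort it from other cells in the embryo. Cdh1 (E-cadherin) is the cadherin that holds embryonic stem cells together and is active in them, whereas most of the others serve neurons or sensory cells and are usually silent there. Expression was not measured here, so this activity and silence are background only. TET enzymes oxidise 5-methylcytosine to 5hmC, so 5hmC can arise only where a CpG is methylated.

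RefSeq gives promoters on GRCm38.p6 (250 bases before to 50 after a gene's start) for 4 of the 8 genes in the table used here, and calls fell in those of Cdh8 and Cdh18. Both are shown because they are the promoter sequences in which CpGs of these genes were read. Capitals mark each CpG that was called, and the window of Cdh8 (chr8:99416422-99416721) is on the minus strand and that of Cdh18 (chr15:23036213-23036512) on the plus strand.
Cdh8: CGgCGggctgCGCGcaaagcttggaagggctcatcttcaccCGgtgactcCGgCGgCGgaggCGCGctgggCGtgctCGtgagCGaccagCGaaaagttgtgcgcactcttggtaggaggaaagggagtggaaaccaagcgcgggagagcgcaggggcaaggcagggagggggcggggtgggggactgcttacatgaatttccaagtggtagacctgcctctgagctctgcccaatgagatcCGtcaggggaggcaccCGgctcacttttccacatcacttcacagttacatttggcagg
Cdh18: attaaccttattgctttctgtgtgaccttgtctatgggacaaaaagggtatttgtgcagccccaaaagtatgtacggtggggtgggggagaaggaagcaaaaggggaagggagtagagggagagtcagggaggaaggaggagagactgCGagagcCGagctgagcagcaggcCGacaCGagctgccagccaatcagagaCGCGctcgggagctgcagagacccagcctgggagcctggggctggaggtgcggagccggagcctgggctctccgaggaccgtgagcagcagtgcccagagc
The window of Cdh8 holds 21 CpGs, a number that 24.8% of 32851 promoters reach, of which 16 were called, 14 on 1 read of 0 h library C and 2 on 1 read of 12 h library A. The Cdh18 window holds 12 CpGs, a number that 39.6% of promoters reach, of which 6 were called on 1 read of 12 h library A. None of these calls was undeaminated. With so few reads, 5hmC in these windows was not detectable at this depth, and no level can be given for either. The Cdh12 and Cdh23 windows hold 9 and 5 CpGs, none of them called. The median promoter holds 7 CpGs.

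The members differ greatly in length and in how often they were read. Cdh1 (chromosome 8, 106603350 to 106670247) is the shortest at 66.9 kb and held 108 calls. Cdh2, N-cadherin of neural and mesenchymal cells (chromosome 18, 16588877 to 16809246), spans 220.4 kb and held 93 calls, the fewest. Cdh4, R-cadherin of the retina and brain (chromosome 2, 179442423 to 179899377), spans 457 kb and held 713 calls. The type II cadherins of neurons were read thinly. They were Cdh8 (chromosome 8, 99024471 to 99417666) with 109 calls, Cdh12 (chromosome 15, 20448878 to 21598421) with 176 calls and Cdh18 (chromosome 15, 22548898 to 23477491) with 185 calls. Cdh13, T-cadherin, which is held to the membrane by a lipid anchor and lacks the cytoplasmic tail of classical cadherins (chromosome 8, 118140017 to 119324929), is the longest at 1185 kb and held 1453 calls. Cdh23, which is not a classical cadherin and forms the tip links of sensory hair cells with Pcdh15 (chromosome 10, 60302748 to 60696513), held 753 calls. The number of calls per 100 kb ran from 15.3 in Cdh12 and 19.9 in Cdh18 to 161.4 in Cdh1 and 191.2 in Cdh23, against 69.2 over the chromosomes. Of the calls in Cdh23, 215 also lay in another protein-coding gene. Coverage was so thin that 94 of 3482 positions in the spans had a call in more than 1 library.

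The level, the percentage of CpG calls that are undeaminated, was higher in the cadherin spans at each later time in doxycycline. Summed over the 8 genes, it was 0.802% at 0 h (6 of 748 calls), 5.42% at 6 h (38 of 701 calls) and 24.1% at 12 h (515 of 2141 calls). By library it was 0, 2.23 and 0.830% at 0 h (A, B, C), 8.87 and 4.68% at 6 h (A, B) and 21.4, 25.6 and 26.2% at 12 h (A, B, C), and the 3 times did not overlap. Whole libraries, which held 75023 to 485941 calls each, averaged 1.13 ± 0.199% at 0 h (SD, n = 3), 6.42 ± 0.212% at 6 h (n = 2) and 24.1 ± 2.36% at 12 h (n = 3). The sum of the cadherin genes lay within 2.30 percentage points of its own library in every library. The data cannot tell a rise in every cell from a larger rise in some cells.

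**Figure D1:**
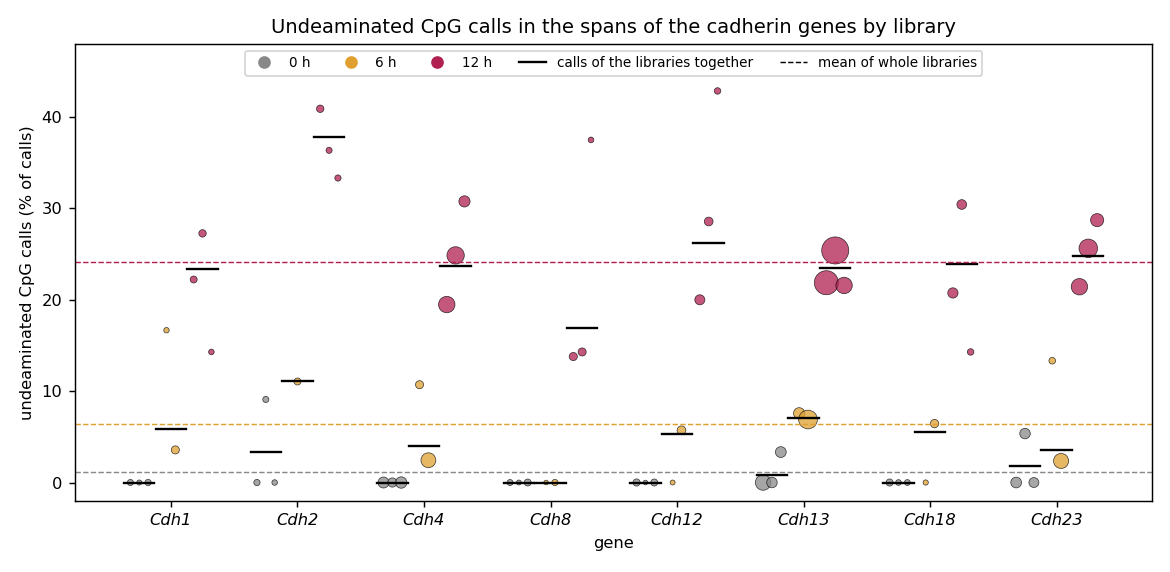
Level of undeaminated CpG calls (percent, y axis) in each cadherin gene (x axis) at 0, 6 and 12 h. Each point is 1 library with its area growing with the number of calls, black bars pool the libraries of a time, and dashed lines are the means of whole libraries at each time. Every 12 h point lies above every 0 h point of its gene, as in whole libraries. The well covered Cdh4, Cdh13 and Cdh23 lie near the line of the 12 h libraries.

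Cdh13, Cdh4 and Cdh23 carried most of the calls. Cdh13 had levels of 0, 0 and 3.33% in the 0 h libraries, 7.58 and 6.90% in the 6 h libraries and 21.9, 25.4 and 21.6% in the 12 h libraries. Its 12 h libraries lay close together, with 219 of 933 calls undeaminated. Cdh4 had no undeaminated call among 170 at 0 h, which allows a level of up to 1.76%, and had 10.7 and 2.44% in the 6 h libraries and 19.5, 24.9 and 30.8% in the 12 h libraries. Its 6 h libraries were far apart, with 3 undeaminated calls in each. Cdh23 had 0, 5.36 and 0% in the 0 h libraries, 13.3 and 2.36% in the 6 h libraries and 21.4, 25.6 and 28.7% in the 12 h libraries. In all 3 genes the lowest 12 h library was above the highest library of the other times. Whole libraries were apart in the same way (22.3% or more at 12 h, 6.57% or less before). How many other genes were apart like this was not counted.

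These 3 genes were the only members that reached 10 calls in each of the 8 libraries, the minimum for the fit across genes, which 346 genes met. All 3 gained undeaminated calls at 12 h against 0 h (limma, weighted by calls, adjusted p over the 346 genes under 0.05), where 98.8% of the tested genes were called. The gain was 23.57 ± 2.44 percentage points in Cdh4 (SE, adjusted p = 6.11e-06), 22.83 ± 1.64 points in Cdh13 (adjusted p = 1.92e-06) and 23.10 ± 2.97 points in Cdh23 (adjusted p = 2.45e-05). A quasi-binomial model, which could not fit Cdh4, called Cdh13 (adjusted p = 0.0476) and not Cdh23 (adjusted p = 0.0581), and 44.8% of the 183 genes it fitted. In the limma fit the 3 genes, in the order given, ranked 159, 190 and 179 from the highest of 346, and the median gene gained 23.26 points. Genes of a library share its rise, so these errors and p-values may be too small.

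The 3 genes also gained between 6 h and 12 h. At 12 h against 6 h, limma called Cdh4 (19.65 ± 3.12 points, adjusted p = 0.000447), Cdh13 (16.42 ± 2.19 points, adjusted p = 0.000317) and Cdh23 (21.25 ± 3.92 points, adjusted p = 0.000863) higher, as 91.6% of all tested genes were. Without 6 h library B, which held 577 of the 701 calls at 6 h, the gain was smaller in all 3 genes. It was 12.9 points in Cdh4, 15.9 points in Cdh13 and 11.4 points in Cdh23. These values rest on 1 library at 6 h, whose spread cannot be measured. In the quasi-binomial model Cdh23 missed the threshold (adjusted p = 0.0568). That model called the other 2, and 48.7% of the 335 genes it fitted. At 6 h against 0 h none of the 3 passed with limma, where 6.36% of the tested genes did. An unadjusted limma p under 0.05 was found for 1 of the 3, higher at 6 h, as for 104 of the 346 tested genes. The quasi-binomial model called neither of the 2 members it could fit, as 0% of its 178 genes. The differences were 6.40 ± 1.74 points in Cdh13 (adjusted p = 0.0532), 3.92 ± 2.28 points in Cdh4 (adjusted p = 0.246) and 1.85 ± 3.01 points in Cdh23 (adjusted p = 0.669).

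Measured against the rise of their own libraries, none of the 3 genes was called higher or lower. After the level of each library was subtracted, the change at 12 h against 0 h was 1.23 ± 2.19 points in Cdh4 (SE, limma adjusted p = 0.863), 0.40 ± 1.68 points in Cdh13 (adjusted p = 0.944) and 0.56 ± 2.80 points in Cdh23 (adjusted p = 0.947). None of the 3 was called by limma or had an unadjusted p under 0.05, and neither of the 2 that the quasi-binomial model could fit was called, as 0% of its 183 genes in either direction. Among all 346 genes, 0.578% were called higher and 1.45% lower, and the median was 0.79 points. An unadjusted limma p under 0.05 was found for 36 of the 346 on the higher side and 13 on the lower. With these standard errors, a departure of a few points from the library would not have been detectable. The sign of each of the 3 values turned under at least 1 other setting.

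**Figure D2:**
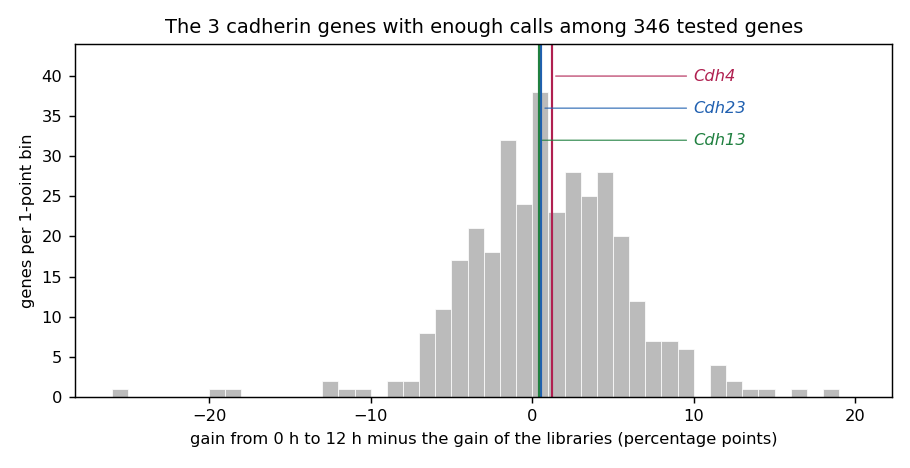
Gain from 0 h to 12 h minus the gain of the libraries (percentage points, x axis) for the 346 genes that met the minimum of calls, as the number of genes per bin (y axis). Coloured lines mark Cdh4 at 1.23, Cdh23 at 0.56 and Cdh13 at 0.40 points, all near the middle of the genes.

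The 3 genes were also read along their length. In 4 stretches of equal length from the lowest coordinate upwards, with the 12 h libraries pooled, Cdh13 had 25.1, 23.6, 25.2 and 18.6%, and the last rests on 188 calls with a 95% Wilson interval of 13.7 to 24.8%. Cdh4 had 27.9, 20.3, 22.8 and 22.8% on 79 to 111 calls a stretch. Cdh23 had 28.8, 20.6, 25.0 and 24.5% on 76 to 139 calls. Within a stretch the 12 h libraries were up to 33.6 points apart, and the pooled stretches of a gene up to 8.15 points, so no order along the genes is read from these values. At 0 h the highest pooled stretch was stretch 2 of Cdh23 at 4.35% (2 of 46 calls), and a stretch with no undeaminated call allowed up to 11.5% (0 of 26 calls in stretch 3 of Cdh23). Wilson intervals cover counting error only, and CpGs on 1 read are not independent.

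**Figure D3:**
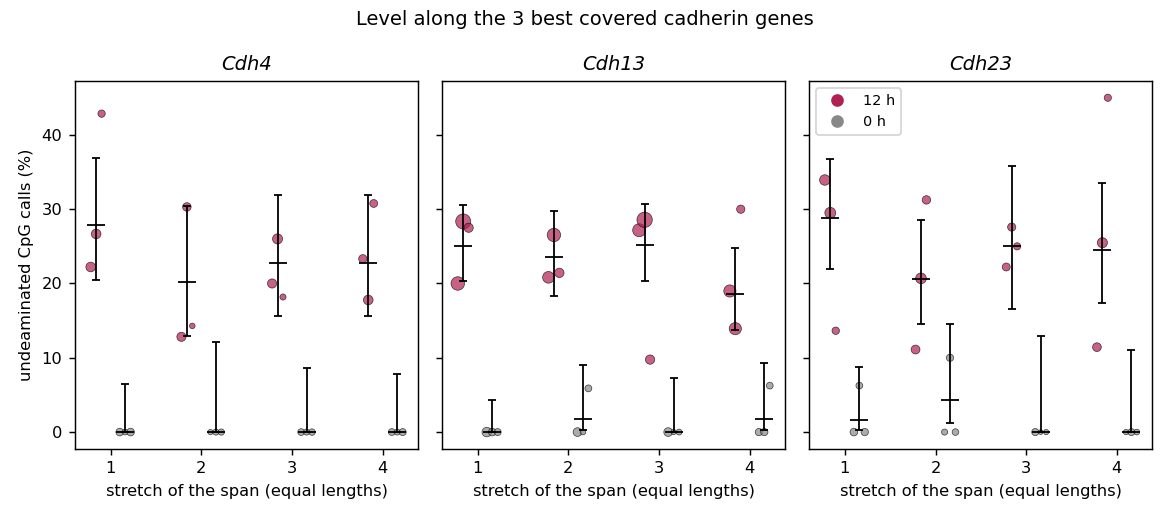
Level of undeaminated CpG calls (percent, y axis) at 12 h and 0 h in 4 stretches of equal length of Cdh4, Cdh13 and Cdh23, numbered from the lowest coordinate (x axis). Points are libraries with area growing with the number of calls, and bars are pooled levels with 95% Wilson intervals. The 12 h intervals of all stretches of a gene overlap, and each lies above the 0 h interval of the same stretch, except in stretch 2 of Cdh23.

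The thinly covered members are described by their counts. Cdh1 had no undeaminated call among 27 at 0 h, which allows up to 11.1%, then 2 among 34 at 6 h and 11 among 47 at 12 h (23.4%, 95% Wilson interval 13.6 to 37.2%). Its 12 h libraries had 22.2, 27.3 and 14.3%, the lowest from 7 calls. Cdh12 had 0 undeaminated among 39 calls at 0 h, which allows up to 7.69%, 2 among 38 at 6 h and 26 among 99 at 12 h (26.3%, interval 18.6 to 35.7%). Its 12 h libraries were spread from 20.0 to 42.9%, the highest from 14 calls. Cdh18 had 0 among 36 calls at 0 h, which allows up to 8.33%, 2 among 36 at 6 h and 27 among 113 at 12 h (23.9%, interval 17.0 to 32.5%). Its 12 h libraries had 20.8, 30.4 and 14.3%. Cdh8 had 0 among 31 calls at 0 h, which allows up to 9.68%, 0 among 13 at 6 h, which allows up to 23.1%, and 11 among 65 at 12 h (16.9%, interval 9.72 to 27.8%). Cdh8 was the lowest member by pooled calls but not by the mean of the 12 h libraries, where it had 21.9% and Cdh1 21.3%. Its 12 h libraries had 13.8, 14.3 and 37.5%, so they lay on both sides of the library levels.

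Cdh2 was the highest member at 12 h. It had 40.9, 36.4 and 33.3% in 12 h libraries A, B and C (17 of 45 calls on 24 reads, 37.8%, interval 25.1 to 52.4%), against 0, 9.09 and 0% in the 0 h libraries (1 of 30 calls). At 6 h it had 2 undeaminated of 18 calls, all in library B, and library A held no call. Each 12 h library lay above its own library level, by 18.6, 13.1 and 6.53 points, and of the 0 h libraries 1 lay above, by 7.86 points, and the other 2 below. The change relative to the library, 10.8 points, did not pass (two-sided exact permutation test, p = 0.2, the smallest possible for 3 against 3 libraries being 0.1). Cdh2 was singled out after its values were seen.

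When the minimum was lowered to 1 call in every library, 3865 genes and all members but Cdh2 could be fitted. Some levels in this fit rest on 1 call, as those of Cdh8 in 6 h library A and Cdh12 in 0 h library B. All 7 gained at 12 h against 0 h, as 84.8% of those genes did (limma), and all 7 at 12 h against 6 h, as 50.6% did. The 4 added members gained 23.51 ± 4.39 points in Cdh1 (SE, limma adjusted p = 0.0019), 16.66 ± 3.83 points in Cdh8 (adjusted p = 0.00487), 25.96 ± 3.66 points in Cdh12 (adjusted p = 0.000575) and 23.95 ± 3.11 points in Cdh18 (adjusted p = 0.000407). Relative to the library, limma called none of the 7, and none had an unadjusted p under 0.05, while 0.362% of genes were called higher and 0.31% lower. Of the 3865 genes, 411 had an unadjusted p under 0.05 on the higher side and 156 on the lower. Among the 7 members the value furthest from 0 was −5.48 ± 3.54 points in Cdh8 (limma adjusted p = 0.539).

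Cdh1, the member that embryonic stem cells use, was set against the 6 long members (Cdh4, Cdh8, Cdh12, Cdh13, Cdh18 and Cdh23), which they normally do not. At 12 h Cdh1 had 23.4% (11 of 47 calls) and the 6 long genes together 23.8% (487 of 2049 calls), and at 0 h they had 0% (0 of 27 calls) and 0.724% (5 of 691 calls). Within the libraries, Cdh1 minus the long genes was 1.41, 1.89 and −11.9 points at 12 h (A, B, C) and 0, −1.83 and −0.901 points at 0 h, so the groups overlapped. The change was −1.95 points (two-sided exact permutation test, p = 1). Without 12 h library C, in which Cdh1 had 7 calls, it was 2.56 points. Cdh2 was placed on neither side of this comparison. With Cdh2 added to the long members, the change was −2.11 points. An interval of 13.6 to 37.2% for Cdh1 leaves room for a difference of many points in either direction.

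The ends of the genes, the 1 kb inside each end of a span, were read by few reads. Ends are not the same as promoters. The promoter windows of Cdh12 and Cdh18 lie 486.9 and 441 kb from the nearest end, so the calls in the Cdh18 window counted as body. The Cdh8 window lies 0.945 kb from the end, so only part of it fell in the ends. At 0 h the ends held 0 undeaminated of 58 calls on 7 reads, none of them in library B, and the bodies 6 of 690 calls. At 6 h the ends held 1 of 37 calls and the bodies 37 of 664. At 12 h the ends held 6 of 18 calls on 7 reads (33.3%, 95% Wilson interval 16.3 to 56.3%) and the bodies 509 of 2123 calls (24.0%). Ends minus bodies was 12.0, −5.58 and 17.0 points in the 12 h libraries and 0 and −0.971 points in 0 h libraries A and C, and the change of 8.31 points did not pass (two-sided exact permutation test, 3 against 2 libraries, p = 0.6, the smallest possible being 0.2). Without the calls of Cdh13 it was −0.84 points. The reads behind the times differed in kind: of the calls at the ends, 0 of 18 at 12 h lay on reads with 8 or more CpGs, against 40 of 58 at 0 h (69.0%). With each level taken relative to what its library gave for the same CpGs per read, the change was 7.32 points (exact permutation test, p = 0.6). It also moved with the length of the ends, to 12.7 points with 500 bases (p = 0.2) and 0.424 points with 2 kb (p = 1, exact tests). Over all protein-coding genes the ends had 10.7 ± 1.51% at 12 h (SD, n = 3), with 58.9% of their calls on such reads, and the bodies 26.5 ± 2.39%.

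By gene, the ends of Cdh1 had 5 calls at 0 h, 12 at 6 h, all on 1 read, and 2 at 12 h, none of them undeaminated. Those of Cdh4 had 2 of 7 calls at 12 h and 0 of 38, on 3 reads, at 0 h. Those of Cdh13 had 2 of 5 calls at 12 h and 0 of 2 at 0 h. Those of Cdh2 and Cdh18 had 1 of 2 calls each at 12 h and no call at 0 h. The ends of Cdh8, Cdh12 and Cdh23 had no call at 12 h. No single gene end was read often enough for a level.

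CpG-rich reads were few inside the cadherin genes. At 12 h, reads with 8 or more CpGs had 13 undeaminated of 102 calls in the 8 spans (12.7%, 95% Wilson interval 7.60 to 20.6%), on 10 reads, and 10.6 ± 1.70% over whole libraries (SD, n = 3). Of these calls Cdh4 gave 10 of 35, Cdh23 3 of 50 and Cdh13 0 of 17. Reads with 1 CpG had 25.1 ± 5.67% in the spans and 25.0 ± 2.50% over whole libraries, and reads with 2 to 3 CpGs had 25.3 ± 1.18% and 26.3 ± 2.46%. In the classes of 1 and of 2 to 3 CpGs the mean of the spans thus lay within 1 SD of the whole libraries. At 0 h no undeaminated call was found among 108 on the CpG-rich reads of the spans.

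Among reads with at least 3 CpGs, those with an undeaminated CpG mostly held deaminated ones as well. Of 271 reads with at least 3 CpGs in the spans at 12 h, 143 were mixed, 120 had no undeaminated call and 8 had no deaminated one. In 12 h libraries A, B and C the mixed share was 51.5, 47.7 and 69.6% in the spans and 49.5, 50.2 and 54.1% over all such reads. The spans lay above and below the whole libraries, and library C, with 46 reads in the spans, was furthest away.

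Each gene was also set against its flanks, taken on both sides and together as long as the gene. This comparison was added after values of the spans were known, and its p-values are not adjusted. The smallest possible p of the exact permutation test, 0.1, was reached in Cdh2, Cdh4, Cdh12 and Cdh13 and not in the other members. How many genes outside the members reach it was not counted. Cdh13 had 21.9, 25.4 and 21.6% in its span and 29.1, 30.8 and 33.4% in its flanks in 12 h libraries A, B and C. The span was thus lower than the flanks in each, by 7.24, 5.38 and 11.9 points. Whole 12 h libraries had 22.3, 23.3 and 26.8%. The flanks lay above this level in each library, the span in B alone. At 0 h the span was lower by 0.538, 1.10 and 2.02 points, and at 6 h the difference was −0.345 and 0.211 points. The change of this difference at 12 h against 0 h was −6.95 points (two-sided exact permutation test, p = 0.1, the smallest possible). Behind it stood 933 calls in the span and 1420 in the flanks at 12 h.

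The flanks of Cdh13 were higher on both sides, with 28.8% of 579 calls below the start and 32.0% of 841 calls above the end undeaminated at 12 h. They were higher inside protein-coding genes (31.8% of 823 calls) and outside them (29.1% of 597 calls). On reads with 7 or fewer CpGs the span had 23.9% (219 of 916 calls) and the flanks 32.4% (405 of 1249 calls). Of the protein-coding genes in the flanks, those with the most calls at 12 h were Plcg2, a phospholipase (25.6% of 125 calls), Atp2c2, a calcium pump (39.7% of 68 calls), and Mlycd, malonyl-CoA decarboxylase (19.3% of 57 calls).

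Cdh2 went the other way, with 17 of 45 calls undeaminated in its span and 4 of 47 in its flanks at 12 h (8.51%, 95% Wilson interval 3.36 to 19.9%). The span was higher by 33.5, 25.3 and 33.3 points in 12 h libraries A, B and C, against 0, 9.09 and 0 points at 0 h (difference 27.7 points, exact permutation test, p = 0.1, the smallest possible). The flanks of library C held 2 calls. No call of the flanks lay in a protein-coding gene, and on reads with 7 or fewer CpGs the flanks had 3 of 36 calls. At 6 h the values of library B were 11.1% in the span and 15.8% in the flanks.

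Of the others, Cdh4 had 23.7% in its span and 18.5% in its flanks at 12 h, with the span higher by 4.56, 5.00 and 2.70 points in libraries A, B and C (change against 0 h 4.09 points, exact permutation test, p = 0.1, the smallest possible). On reads with 7 or fewer CpGs, however, the span had 23.2% (83 of 357 calls) and the flanks 23.1% (71 of 308 calls). All flank calls had 14.6% inside protein-coding genes and 22.6% outside. Cdh23 had 24.8% in its span and 22.7% in its flanks, but the sign differed between libraries. Cdh12 had 26.3% in its span and 23.2% in its flanks. The span was higher by 6.54, 3.22 and 0.752 points in libraries A, B and C (change against 0 h 3.50 points, exact permutation test, p = 0.1). At 0 h neither the span nor the flanks of Cdh4 or Cdh12 held an undeaminated call, so each difference there was 0. For both genes the permutation p of 0.1 thus says only that the 12 h differences shared a sign. Spans and flanks had 23.9 and 21.1% in Cdh18, 16.9 and 12.2% in Cdh8 and 23.4 and 28.8% in Cdh1. In each of these the intervals of span and flanks overlapped. The change against 0 h did not reach the smallest p in Cdh23, Cdh18, Cdh8 or Cdh1. The exact permutation test gave p = 0.6 in Cdh23 and p = 0.4 in Cdh8 and in Cdh1.

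**Figure D4:**
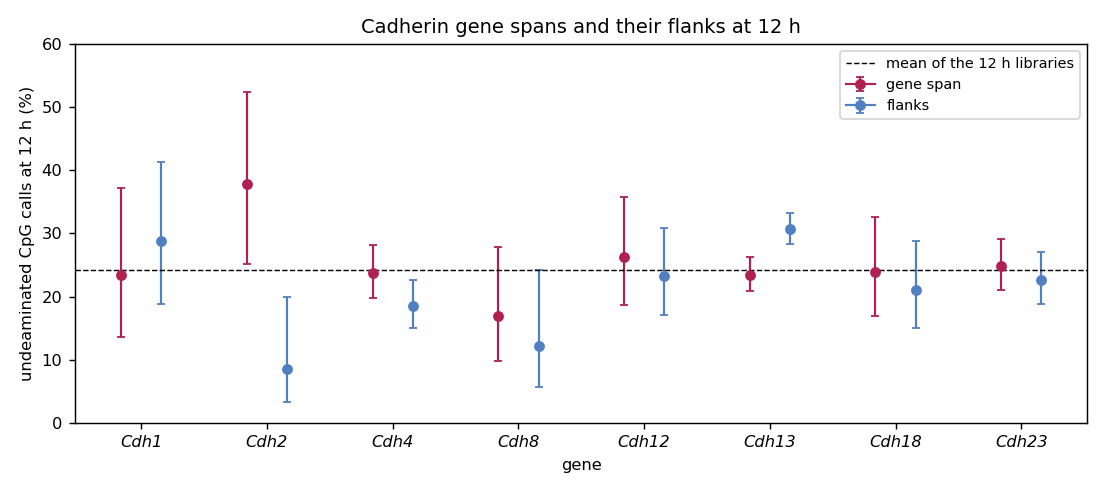
Level of undeaminated CpG calls at 12 h (percent, y axis) in each cadherin gene (x axis) and in flanks that together are as long as the gene, libraries pooled, with 95% Wilson intervals. The dashed line is the mean of the 12 h libraries, 24.1%. The intervals of span and flanks are apart for Cdh2 (37.8 and 8.51%) and Cdh13 (23.5 and 30.7%) and overlap for the others.

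The other cadherins, protocadherins and catenins of a list of 32 genes all held calls, and together had 23.1% at 12 h (663 of 2865 calls) and 0.954% at 0 h (9 of 943 calls). Only 2 met the minimum of 10 calls in every library, and both gained in limma, where 98.8% of tested genes did. Ctnna3, an alpha-catenin of heart and testis, gained 20.3 ± 2.46 points (SE, adjusted p = 1.72e-05) and Ctnnd2, the delta-catenin of neurons, 18.7 ± 2.61 points (adjusted p = 4.48e-05). Relative to its libraries neither passed (−2.23 ± 2.20 points, adjusted p = 0.677, and −3.85 ± 2.42 points, adjusted p = 0.509). Of the other well covered genes, Pcdh15, the tip-link partner of Cdh23, had 23.8 ± 1.00% at 12 h and 1.11 ± 1.92% at 0 h (SD, n = 3 each), and Cdh22, a type II cadherin, 32.7 ± 14.2% at 12 h and 0 of 43 calls at 0 h.

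Among 341 tested genes outside these lists, the levels over the 8 libraries were most like the sum of the cadherin genes in Nrg1, the growth factor neuregulin (root mean square difference 1.87 points), Ptprd, a receptor phosphatase (1.90 points), and Lrmda (2.01 points), against a median of 5.06 points. Nrg1 had 19.6, 26.0 and 24.4% in the 12 h libraries and 2.33, 0 and 3.12% in the 0 h libraries. All genes share the rise of the libraries, so the likeness is a description.

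The 3 sequencing runs gave the same direction. Summed over the 8 genes, the gain at 12 h against 0 h was 21.3 points in run 1 (1628 calls), 26.2 points in run 2 (1739 calls) and 12.7 points in run 3 (223 calls).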

How the data were processed

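Each deposited file holds 1 line per CpG and read and was written, per the file headers, by Bismark's methylation extractor 0.22.3. The authors' values are call letters with no other unit, undeaminated or deaminated. As tools, Trim Galore and Bismark 0.22.3 are listed in the submitters' processing notes, with the build GRCm38. How they were set, and any duplicate removal, is not given in the sources used here. Per the labels' protocols, DNA of about 300 bp was sequenced in 3 runs with 150 bp chemistry.

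Groups came from the sample titles, gene spans from RefSeq. Of 52965 calls in RefSeq promoter windows, 99.9% lay on a CpG of the sequence. Levels per gene and library were fitted with limma 3.58.1 (R 4.3.3) with 1 factor of 3 times over all 8 libraries, weighted by calls over the binomial variance of the library level, for genes that reached 10 calls in each library, with Benjamini-Hochberg adjustment over all genes and a threshold of 0.05. The fit was tested on simulated independent calls at the real numbers of calls. These had no added spread between libraries and no link between CpGs of a read, so the test does not address either. Sums of calls were compared by exact permutation over libraries, two-sided (scipy 1.17.1 as a check). Intervals are 95% Wilson intervals, and beside a count of 0 stands the level that 3 counts would make. Both cover counting error only. Alternatives were other call minimums, 1 call per read, no weights, logit levels, a quasi-binomial model, duplicates or overlapping genes left out, other centrings, other gene ends and members, runs, and each library left out. Members and lists were chosen with earlier results of these data known. All members are named. Of other cadherin and catenin genes, the 4 with the most calls, and of tested genes outside the lists the 3 nearest in level, are named. The comparison with flanks was added later.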

Additional observations from a re-analysis of the deposited data

How the results depend on the processing

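The gains of Cdh4, Cdh13 and Cdh23 at 12 h against 0 h kept their sign under the alternatives in which each could be fitted. This covers those 3 members alone. The number of members called was 7 with a minimum of 1 call (7 tested), and 1 with the quasi-binomial model, which could not fit Cdh4, at 0 undeaminated calls at 0 h, gave Cdh23 an adjusted p of 0.0581 and called 82 of 183 fitted genes, against 342 of 346 with limma. At 12 h against 6 h, 7 members passed with a minimum of 1 call, and 1 to 3 with a library left out, the lowest without 6 h library B, where 168 genes passed against 317. The quasi-binomial model called 2 of 3 members there and 163 of 335 fitted genes, with Cdh23 at an adjusted p of 0.0568. At 6 h against 0 h, Cdh13 passed with a minimum of 20 calls (1 of 2 tested, adjusted p = 0.0437), as 15 of 87 genes did, against 22 of 346. Deviations of the genes from their group mean were not correlated between libraries of the same letter (7 pairs, r of −0.165 to 0.00937). Counting error at few calls per gene can hide a pairing, so this check cannot tell whether the letters pair the libraries. With the replicate letters as a block, Cdh4 gained 23.7 points and the counts of members called did not change. Cdh23 at 6 h against 0 h turned to −0.454 points, and ends minus bodies was 15.0 points (exact sign-flip permutation test, p = 0.5).

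Gene ends minus bodies turned to −3.55 points with 1 call per read, −16.8 points within run 2 and −0.84 points without Cdh13, was 24.8 points within run 1, 12.7 points with ends of 500 bases, 0.424 points with ends of 2 kb and 3.23 points with 1 kb outside each end added (an alternative chosen after seeing the data), and ran from 3.71 to 15.0 points with a library left out. Cdh1 minus the long members turned to 1.96 points with 1 call per read and 8.77 points within run 1, and ran from −4.32 to 2.56 points with a library left out, highest without 12 h library C. Run 3 gave no value for either.

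The deviations from the library were uncalled throughout. Cdh4 turned to −0.991 points with median centring. Cdh13 turned to −1.07 with 1 call per read, −1.18 without weights, −1.74 with median centring and −1.32 when standardised for CpGs per read, and ran from −1.42 to 1.33 with a library left out. Cdh23 turned to −0.532 points without calls in another gene, −0.454 on the logit scale, −0.00700 with the block, −1.66 with median centring and −0.437 in the quasi-binomial model (log odds), and ran from −0.549 to 2.13 points with a library left out. The cause of these turns was not tested. All members but Cdh4, Cdh13 and Cdh23 were read too thinly for the main fit, and their other values rest on few calls.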
